A study of Mus musculus with 6 samples.

Results

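The co-chaperones and chaperonin subunits described here are the DNAJ proteins of classes A, B and C, the BAG proteins and the subunits of the CCT chaperonin. They were taken from the deposited expression table by gene symbol alone, as every row named Dnaja, Dnajb or Dnajc followed by a digit (Dnajb1 was left out), Bag followed by 1 digit, Cct followed by a digit, or Tcp1. This gave 55 of the 17030 genes of the table, made up of 40 DNAJ genes (4 of class A, 11 of class B and 25 of class C), 6 BAG genes and 9 CCT genes. The libraries were made from RNA of mononuclear cells, taken from skeletal muscle of male mice (strain C57BL/B6) that carried LLC tumours (Lewis lung carcinoma, a transplanted mouse tumour used to model cancer cachexia). The libraries labelled Pax7 Cre ErT x IKKbfl/fl (called Pax7-CreERT here, 3 libraries) came from mice in which IKKb, an activating kinase of the canonical NF-kB pathway, had floxed alleles, together with a tamoxifen-activated Cre recombinase driven by Pax7, the transcription factor of muscle satellite cells. The libraries labelled IKKbfl/fl (controls, 3 libraries) came from mice with the same floxed alleles and no Cre. Both groups carried the tumour and received tamoxifen on days 10 to 14 of tumour growth, and age was not given in the sources used here. Cre was active only where Pax7 is or was expressed, so most of the mixed cells kept IKKb by design, and since no group had Cre without floxed alleles, what Cre does and what the loss of IKKb does cannot be told apart. Nothing in the labels says outright that each library is a separate animal, so p-values measure the spread between these libraries. The comparison asks whether the co-chaperones of mixed muscle cells differ between these genotypes in tumour-bearing mice. The loss of IKKb from Pax7-lineage cells was itself not measured here.

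Cytosolic and organellar proteins are folded by HSP70, which binds a client while it splits ATP and lets go when the nucleotide is exchanged. DNAJ proteins (J proteins, or HSP40) bring clients to HSP70 and trigger ATP splitting through their J domain; class A members also carry a glycine-rich stretch and a zinc finger, class B members the glycine-rich stretch, and class C members share the J domain only. BAG proteins bind the other face of the cycle, exchanging the nucleotide of HSP70, and link it to the proteasome, autophagy or membrane insertion. CCT (also TRiC) is a separate ATP-driven chaperonin, a double ring whose different subunits stand side by side, known for folding actin and tubulin. In muscle, Bag3 with its partner chaperones, Dnajb4 and Dnajb6 are known for the upkeep of the Z-disc and for inherited myopathies.

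Of the 51 members measured well enough to be tested, 48 had overlapping levels in both genotypes, the others being the DNAJ genes Dnaja4, Dnajc6 and Dnajc30. None of the 51 members with at least 1 CPM (reads per 1000000 reads assigned to genes) in at least 3 of the 6 libraries passed an adjusted p under 0.05 in limma (lowest adjusted p = 0.891), against 1 of 14763 genes tested, or 0.00677%. At an unadjusted p under 0.05 in limma, 1 member (Dnajb4) was higher with Cre and 1 (Dnajc30) was lower, or 1.96% in each direction, where 4.58% and 0.942% of all genes were. With TMM scaling, which evens out the bulk of genes between libraries, the shares of all genes were 2.51% and 2.11%, and the members numbered 0 and 1. With counts of 1 gene, these shares are not read as a result about the members. The 2 groups of libraries did not overlap for 1 member that was higher with Cre (Dnaja4, 1.96% of members) and for 2 that were lower (Dnajc30 and Dnajc6, 3.92%), against 8.69% and 2.28% of all genes. The median log2 fold change (Pax7-CreERT minus control, on the log2(CPM + 1) scale) was 0.075 over 37 DNAJ genes, 0.099 over 6 BAG genes and 0.12 over 8 CCT genes, and 0.089 over all tested genes. Of the members 36 of 51 (70.6%) had a value above 0, as did 68.0% of all genes. With TMM scaling 25 members did (49.0%), against 50.7% of all genes, and the medians became -0.018, 0.0085 and 0.025 for DNAJ, BAG and CCT and 0.0032 for all genes.

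The intervals show how large a difference remains possible. For 46 of the 51 members the 95% interval lay within a 2-fold change in both directions (90.2%, against 85.5% of all tested genes), and for 34 within a 1.5-fold change (66.7%, against 44.5%). These shares are not matched for level: the median of the mean CPM was 32.1 for the members and 18.3 for all tested genes. All 8 tested CCT subunits were within the narrower bound. The 5 members whose intervals reached past 2-fold were Dnajc6, Dnajc12, Dnajc15, Dnajc24 and Dnajc30, with means of 1.70 to 6.73 CPM over the 6 libraries. In the plot of fold changes these 5 genes stand out by the length of their bars.

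**Figure D1:**
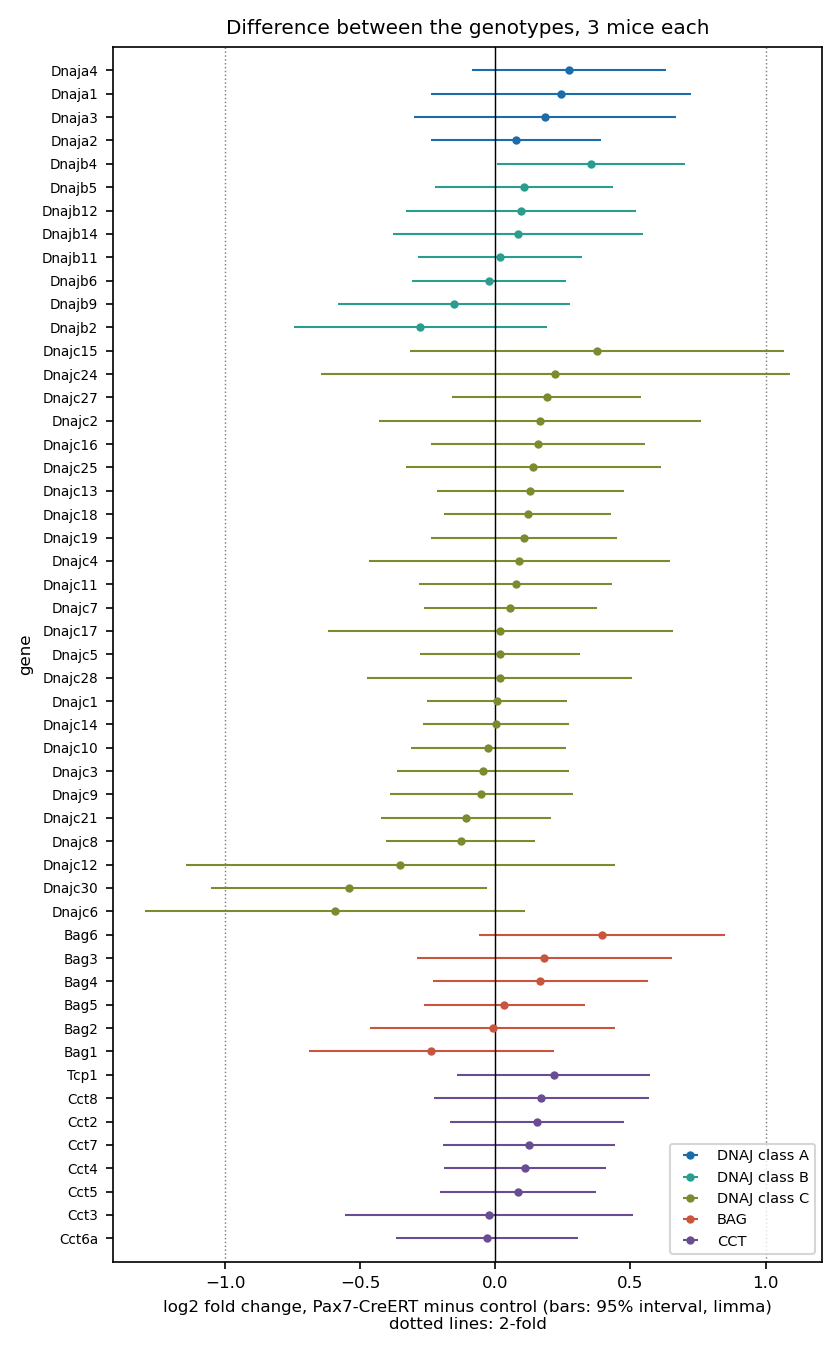
Log2 fold change of each of the 51 tested members (points, Pax7-CreERT minus control on the log2(CPM + 1) scale) with its 95% interval from limma (bars), coloured by family; dotted lines mark a 2-fold change. Of the 51 bars 46 lie between the dotted lines, and the bars of Dnajb4 and Dnajc30 do not cross 0. The plot title calls the 3 libraries of each group mice, which the labels do not say outright.

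Depth, estimated from the value of 1 read, was 4054000 to 13350000 assigned reads per library, so a gene at 10 CPM carried a counting SD of 8.65% to 15.7% per library. Control replicate 3 was the shallowest and stood apart in composition: the haemoglobin genes Hba-a1, Hba-a2, Hbb-bs and Hbb-bt made up 11.6% of its CPM, against 1.58% to 4.48% in the other 5 libraries. Ikbkb, which encodes IKKb, measured 51.4, 48.4 and 52.7 CPM with Cre and 51.3, 57.4 and 48.8 CPM in the controls, and a value for the whole gene does not separate the floxed exons. Markers of the cells of muscle were detected. Their sum was 3821 to 4406 CPM with Cre and 3615 to 4792 CPM in the controls for 5 endothelial markers, 8211 to 10346 CPM with Cre and 6277 to 8228 CPM in the controls for 6 mural markers, 297 to 434 CPM with Cre and 224 to 693 CPM in the controls for 7 leukocyte and macrophage markers, and 135 to 145 CPM with Cre and 108 to 157 CPM in the controls for 7 satellite cell markers. Transcripts of mature fibres were present in a preparation labelled mononuclear: 13 myofibre genes summed to 2104 to 3000.0 CPM with Cre and 1013 to 1719 CPM in the controls, all 13 had higher values with Cre (also with TMM scaling) and 11 of them had an unadjusted limma p under 0.05. The 6 mural markers also had log2 fold changes above 0, with TMM and quantile scaling too (median 0.42), 3 of them with an unadjusted limma p under 0.05. Of 6 fibro-adipogenic progenitor markers, 4 were above 0 and 2 had an unadjusted limma p under 0.05 (sums of 2087 to 3679 CPM with Cre and 2152 to 3328 CPM in the controls). The part of these cells in the values of the co-chaperones was not tested. Fewer cells of a type and less RNA per cell cannot be told apart in such bulk samples, and this holds for every value below.

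The heat-inducible co-chaperones come first, since they are the targets of the heat shock factor HSF1, whose response elements are inverted repeats of GAA. Promoter windows of 300 bases (250 before to 50 after the start site, RefSeq, GRCm38.p6, the build the submitters' notes call mm10) were at hand for 47 of the 55 members. A heat shock element of 3 units (GAA, TTC and GAA with 2 bases of any kind between neighbours, both strands) was found in 1 of the 47, Dnajb6, and in 0.600% of the table's 13334 genes with a window. An inverted pair of units in either order (GAANNTTC or TTCNNGAA, each its own reverse complement, and each part of a 3-unit match) was found in 11 of 47 members (23.4%) against 14.5% of genes. A gene counted if any of its windows held a match, and these shares were not matched for the number of windows per gene. The pair was chosen after the 3-unit search, with the data in view. It was present in 4 of the 5 members fixed as heat-inducible, Dnaja1, Dnaja4, Dnajb4 and Bag3, and not in the window of Dnajb5. An ER stress element (CCAAT and CCACG parted by 9 bases of any kind, both strands) lay in 1 member, Dnajc3, and in 0.165% of genes. The matched stretches are shown with the matches in capitals and up to 25 bases on either side, because the heat-inducible and ER stress-inducible members are described as groups next:
Dnajb6 (chr5:29735827-29735889, + strand): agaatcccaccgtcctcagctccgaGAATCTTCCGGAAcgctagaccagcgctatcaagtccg
Dnaja1 (chr4:40722319-40722376, + strand): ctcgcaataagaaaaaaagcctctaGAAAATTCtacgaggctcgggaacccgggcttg
Dnaja4 (chr9:54699444-54699539, + strand): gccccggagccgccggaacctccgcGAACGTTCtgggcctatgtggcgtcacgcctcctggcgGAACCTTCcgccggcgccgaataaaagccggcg
Dnajb4 (chr3:152193827-152193884, - strand): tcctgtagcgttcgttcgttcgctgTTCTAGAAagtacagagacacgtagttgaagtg
Bag3 (chr7:128523600-128523632, + strand): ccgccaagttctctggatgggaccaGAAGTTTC
Dnajc3 (chr14:118937802-118937870, + strand): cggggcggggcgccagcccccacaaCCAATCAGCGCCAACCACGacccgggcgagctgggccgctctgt

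The first matched base lay 46 bases before the start site in Dnajb6, 124 before in Dnaja1, 90 before in Dnaja4 (which held 2 pairs), 14 before in Dnajb4, 105 before in Dnajc3 and 42 after the start site in Bag3, where the window ends with the match. The Dnajb4 stretch belongs to an internal start site 16238 bases from the gene start of the deposited table, and the window at that gene start held no match. For Dnaja4 the start site lay 276 bases from the gene start of that table. Dnajb6 had another window with the same match, which began 127 bases before the start site of that window. A match describes these letters only and is no evidence of binding.

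The 5 heat-inducible members had log2 fold changes above 0, also with TMM and quantile scaling, and 3 of the 5 did without control replicate 3. The median was 0.24, 0.15 with TMM scaling and 0.085 without control replicate 3, and none of the 5 passed the adjusted threshold in any of these settings. Immediate early genes, which are induced when tissue is dissociated, lay in the same direction: 11 of 12 were above 0 (8 with TMM scaling and 7 without control replicate 3, median 0.24), with sums of 11202 to 15756 CPM with Cre and 9248 to 13848 CPM in the controls. Control replicate 3 was the lowest library for 9 of the 12, and their part in the heat-inducible values was not tested. Dnajb4, a class B protein that is induced by heat and whose loss causes a myopathy (chromosome 3, 152181580 to 152210083), measured 253, 239 and 219 CPM in Pax7-CreERT replicates 1, 2 and 3 and 221, 188 and 152 CPM in control replicates 1, 2 and 3. The lowest Pax7-CreERT library lay just below the highest control, and control replicate 3 was the lowest of the 6. Its means were 237 ± 17.0 against 187 ± 34.5 CPM (log2 fold change 0.35, 95% interval 0.0067 to 0.70, adjusted p = 0.896). The unadjusted limma p of Dnajb4 was 0.0465, and 0.082 with TMM scaling and 0.118 without control replicate 3. Dnaja4, a cytosolic class A protein (chromosome 9, 54699283 to 54716317), measured 30.9, 34.9 and 32.2 CPM in Pax7-CreERT replicates 1, 2 and 3 and 30.1, 29.2 and 22.0 CPM in control replicates 1, 2 and 3. Here the lowest Cre library stood just above the highest control, which it did not with TMM scaling, and control replicate 3 lay well below the rest (log2 fold change 0.27, 95% interval -0.086 to 0.63, adjusted p = 0.896). For Dnaja4 the exact 2-sided permutation p was 0.1, the smallest that 3 libraries against 3 allow, and the value that any gene without overlap gets. Of the exons of Dnaja4 52.6% overlap Wdr61 on the opposite strand, which was itself at 2.71 to 5.62 CPM, and the counting is not stated to use strand.

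Dnaja1, the most general class A partner of cytosolic HSP70 (chromosome 4, 40722468 to 40734965), measured 95.2, 103 and 98.5 CPM in Pax7-CreERT replicates 1, 2 and 3 and 106, 97.4 and 56.0 CPM in control replicates 1, 2 and 3. Of the 6 libraries 5 lay within 95.2 to 106 CPM and control replicate 3 lay far below them. The log2 fold change of Dnaja1 was 0.24 with all libraries and -0.042 without control replicate 3. Smu1, a splicing factor gene whose exons overlap 10.8% of those of Dnaja1 on the opposite strand, was also lowest in that library, with 55.3 CPM in control replicate 3 and 91.0 to 106 CPM in the others. Dnajb5, a class B protein, measured 44.3, 41.5 and 39.5 CPM with Cre and 33.9, 45.4 and 37.5 CPM in the controls, with both the lowest and the highest value among the controls (log2 fold change 0.11, 95% interval -0.22 to 0.44, adjusted p = 0.941). Bag3, the partner of small heat shock proteins in the removal of damaged filamin from the Z-disc (chromosome 7, 128523583 to 128546979), measured 90.6, 67.8 and 67.2 CPM in Pax7-CreERT replicates 1, 2 and 3 and 65.5, 87.8 and 48.8 CPM in control replicates 1, 2 and 3. The values of Bag3 were high in 1 library of each group and lowest in control replicate 3, and the groups overlapped throughout (log2 fold change 0.18, 95% interval -0.29 to 0.65, adjusted p = 0.925). The log2 fold change of Bag3 became -0.027 without control replicate 3. The myofibre sum was also highest in Pax7-CreERT replicate 1 (3000.0 CPM) and lowest in control replicate 3 (1013 CPM), and its part in the values of Bag3 and Dnajb4 was not tested.

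These values stand beside those of the chaperones they serve. Of 15 HSP70 and HSP110 genes, 4 (Hspa1a, Hspa1b, Hspa1l and Hsph1) had an unadjusted limma p under 0.05 as higher with Cre and 0 passed the adjustment (lowest adjusted p = 0.223); the median of the 15 was 0.17, with 12 higher (10 with TMM scaling) and 3 lower. Control replicate 3 was the lowest library for 11 of the 15, and without it their median was 0.068. Hspa1b had the largest log2 fold change of the 15, at 1.40 with a 95% interval of 0.90 to 1.90 (1.15 without control replicate 3). It measured 1812, 1565 and 1588 CPM with Cre and 697, 796 and 442 CPM in the controls. Among the 5 heat-inducible co-chaperones the highest upper end of an interval was 0.72 (Dnaja1), and their median of 0.24 was above that of the 15. A direct test between genes was not made. The 4 HSP90 genes had log2 fold changes above 0, 3 of 4 with quantile scaling (median 0.28, 0 with an unadjusted limma p under 0.05). Of 18 other co-chaperones of HSP70 and HSP90, 13 were higher (8 with TMM scaling) and 5 lower (median 0.076), with 1 at an unadjusted limma p under 0.05 in each direction. Those were Unc45a, the myosin chaperone (30.8 ± 2.37 against 21.6 ± 6.13 CPM), and Fkbp5, a glucocorticoid-induced immunophilin (41.6 ± 8.01 against 71.0 ± 21.5 CPM). The 6 tested small heat shock genes had log2 fold changes above 0, 5 of 6 with TMM scaling (median 0.35), among them Hspb1 at 216 ± 19.2 against 163 ± 27.3 CPM, the 1 of the 6 with an unadjusted limma p under 0.05. Hsf1 and Hsf2 measured 18.1 ± 0.463 against 18.1 ± 3.96 CPM and 8.40 ± 1.96 against 6.93 ± 1.85 CPM. No gene of these lists passed the adjusted threshold.

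Of the 6 BAG genes 4 had log2 fold changes above 0 (3 with TMM scaling), and control replicate 3 was at one end of the range for 4 of them. Bag6, which catches tail-anchored and mislocalised membrane proteins (chromosome 17, 35135213 to 35147321), measured 67.2, 53.0 and 51.9 CPM in Pax7-CreERT replicates 1, 2 and 3 and 45.5, 55.5 and 31.6 CPM in control replicates 1, 2 and 3. Its highest value was in Pax7-CreERT replicate 1 and its lowest in control replicate 3, and control replicate 2 lay above 2 of the Cre libraries. The means of Bag6 were 57.4 ± 8.52 against 44.2 ± 12.0 CPM (log2 fold change 0.40, 95% interval -0.06 to 0.85, adjusted p = 0.896), with a log2 fold change of 0.18 without control replicate 3. Bag1, which couples HSP70 to the proteasome (chromosome 4, 40936398 to 40948294), stood in the other order, with 70.0, 73.9 and 86.9 CPM in Pax7-CreERT replicates 1, 2 and 3 and 74.6, 77.7 and 128 CPM in control replicates 1, 2 and 3. Control replicate 3 was above all other libraries, which lay within 70.0 to 86.9 CPM. The log2 fold change of Bag1 was -0.24 (-0.69 to 0.22, adjusted p = 0.902) with all libraries and 0.0092 without that library. Dnajb2, a class B protein with ubiquitin-binding motifs that steers clients to the proteasome (chromosome 1, 75236423 to 75245692), stood in the same order, with 45.9, 48.1 and 49.3 CPM in Pax7-CreERT replicates 1, 2 and 3 and 56.0, 42.6 and 82.1 CPM in control replicates 1, 2 and 3. Its log2 fold change was -0.28 (adjusted p = 0.899), and -0.032 without control replicate 3.

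**Figure D2:**
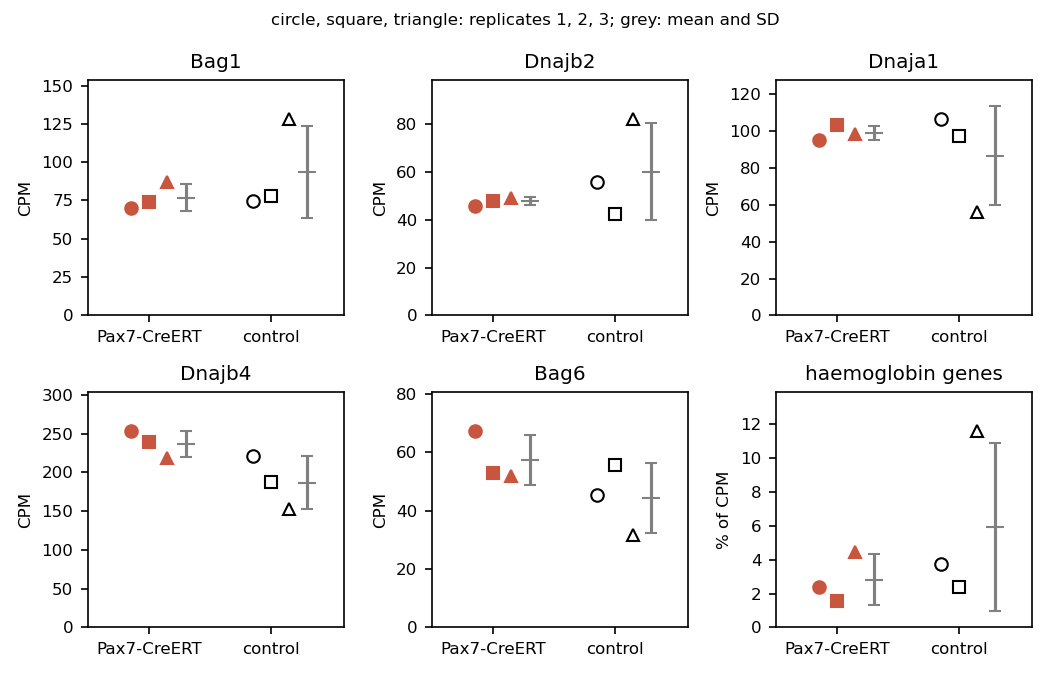
CPM of Bag1, Dnajb2, Dnaja1, Dnajb4 and Bag6 in each library and, in the last panel, the share of CPM in the haemoglobin genes (percent); filled symbols are Pax7-CreERT and open symbols control, with replicates 1, 2 and 3 as circle, square and triangle, and grey marks give the mean and SD of 3 libraries. Control replicate 3 (open triangle) is the highest for Bag1 (128.0 CPM) and Dnajb2 (82.1 CPM), the lowest for Dnaja1, Dnajb4 and Bag6, and the highest for haemoglobin (11.6%).

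Among the 51 members control replicate 3 was the lowest library for 25 (49.0%) and the highest for 5 (9.80%), against 39.8% and 14.8% of all tested genes. The 5 highest were Bag1, Dnajb2, Dnajb6, Dnajc5 and Dnajc8. Of 7 erythroid genes 6 were highest in the same library, as were 6 of 7 leukocyte and macrophage genes, and their part in the values of these members was not tested. The erythroid sum was 119827 CPM in control replicate 3 and 16133 to 45591 CPM in the others, and no marker of either list was at 0. Hba-a1, however, was at 0.0136 CPM in control replicate 2 and 0.0251 CPM in Pax7-CreERT replicate 3, less than 1 read is worth there. Bag5, a protein with several BAG domains, measured 112, 145 and 124 CPM with Cre and 122, 120.3 and 127 CPM in the controls (log2 fold change 0.033, 95% interval -0.26 to 0.33). Bag4, which binds the death domain of the TNF receptor, measured 26.1, 25.3 and 32.7 CPM with Cre and 27.5, 27.5 and 19.9 CPM in the controls, with the lowest value again in control replicate 3 (log2 fold change 0.17, 95% interval -0.23 to 0.56). Bag2, an inhibitor of the ubiquitin ligase CHIP, was the faintest of the family at 6.41, 8.31 and 7.73 CPM with Cre and 6.52, 8.76 and 7.40 CPM in the controls, with the genotypes fully mixed (log2 fold change -0.011, 95% interval -0.46 to 0.44).

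The plot of all tested members by library sets their variation between libraries beside the genotype. The position of a family in a library, the median over its members of log2(CPM + 1) minus the member's mean over the 6 libraries, was -0.25 for CCT, -0.20 for BAG and -0.13 for DNAJ in control replicate 3, where all tested genes stood at -0.12. CCT stood highest in Pax7-CreERT replicate 2, at 0.18, and between -0.062 and 0.069 in the other 4 libraries. DNAJ lay between -0.023 and 0.046 in the 5 libraries other than control replicate 3. For the 39 members with a mean of at least 10 CPM the median coefficient of variation over the 6 libraries was 10.7%, against 14.1% for the 9427 tested genes above the same level. For 21 of the 39 the coefficient was below 2 times that which counting alone gives. The same count was not made over all tested genes, so it is not read as a result about the members. The least variable member was Dnajc1, a J protein of the endoplasmic reticulum membrane that touches the ribosome, at 149, 143 and 145 CPM with Cre and 144, 153 and 139 CPM in the controls. Its coefficient of variation was 3.28%, as was that of counting, and its interval was the tightest of the members (-0.25 to 0.26).

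**Figure D3:**
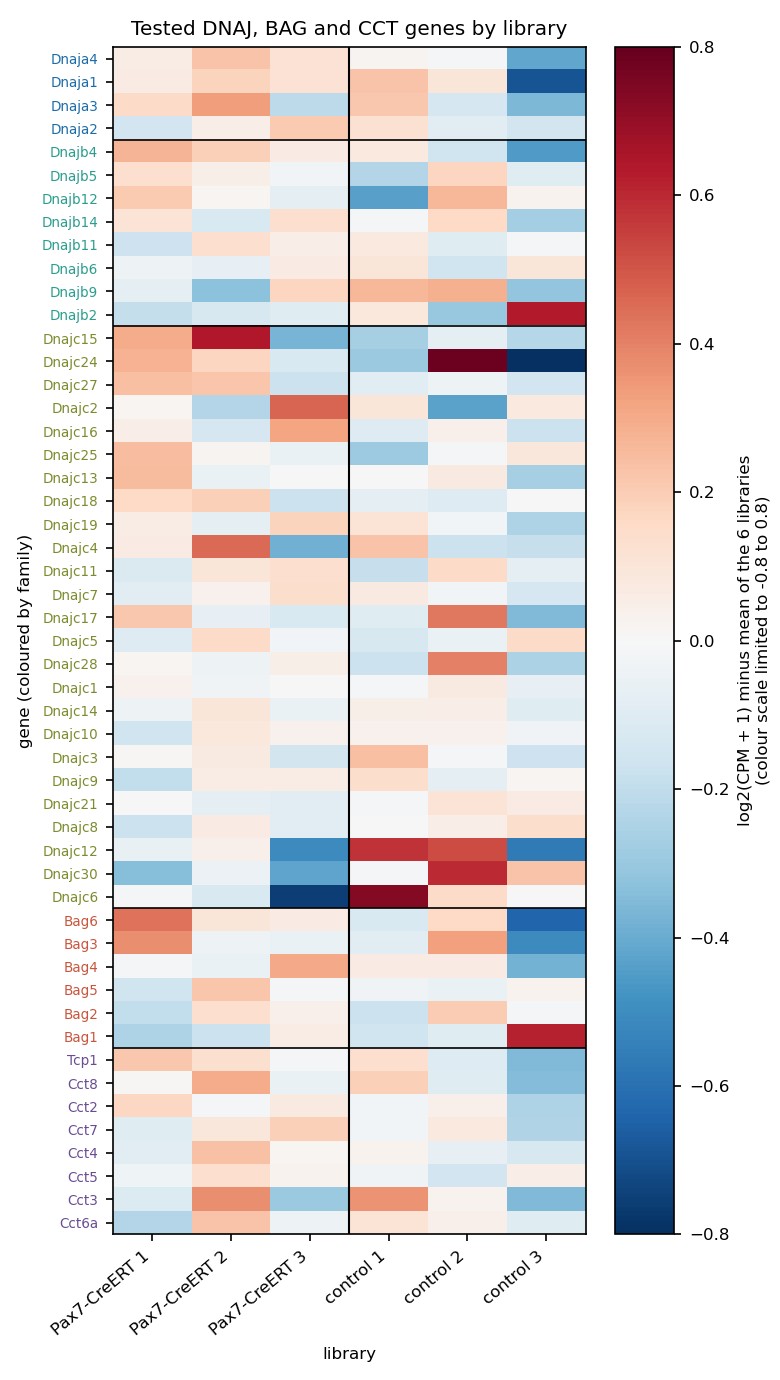
Log2(CPM + 1) of the 51 tested members in each library, as the difference from the member's mean over the 6 libraries (red above, blue below, colours limited to -0.8 to 0.8); rows are grouped by family and ordered by log2 fold change within it, and the vertical line parts the Pax7-CreERT from the control libraries. The column of control replicate 3 holds the lowest value of 25 of the 51 rows, with Bag1 and Dnajb2 standing out as high.

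The CCT ring as a whole showed no difference beyond its spread. The summed level of its 8 subunit genes was 313, 362 and 325 CPM in Pax7-CreERT replicates 1, 2 and 3 and 335, 314 and 283 CPM in control replicates 1, 2 and 3. The groups overlapped, with control replicate 3 lowest and Pax7-CreERT replicate 2 highest (means 333 ± 25.8 and 310.5 ± 26.3 CPM, exact 2-sided permutation p = 0.5). Of the 8 subunits 6 had log2 fold changes above 0, 5 with TMM scaling. Of the single subunits 6 of 8 (all but Cct5 and Cct6a) were lowest in control replicate 3. Tcp1, the alpha subunit (chromosome 17, 12916329 to 12925067), had the largest log2 fold change of the ring, with 41.0, 38.4 and 34.7 CPM with Cre and 38.6, 32.7 and 27.2 CPM in the controls (log2 fold change 0.22, 95% interval -0.14 to 0.57, adjusted p = 0.899). Its exons overlap those of Acat3 on the opposite strand over 23.3% of their length, and Acat3 measured 2.88 to 8.54 CPM. Cct8 measured 27.4, 33.7 and 26.3 CPM with Cre and 31.2, 25.4 and 21.2 CPM in the controls (0.17, -0.23 to 0.57). Cct2 measured 34.3, 30.3 and 32.0 CPM with Cre and 29.9, 31.3 and 25.4 CPM in the controls (0.15, -0.17 to 0.48). The values of Cct2 overlapped between groups, and Pax7-CreERT replicate 1 was the highest. Cct7 measured 48.2, 54.9 and 59.0 CPM with Cre and 50.8, 54.4 and 43.4 CPM in the controls (0.12, -0.19 to 0.44). Cct4 measured 57.8, 72.6 and 62.3 CPM with Cre and 62.9, 58.7 and 56.2 CPM in the controls (0.11, -0.19 to 0.41). Pax7-CreERT replicate 2 stood apart in Cct4, above the other 5 libraries. Cct5 measured 47.5, 53.6 and 49.7 CPM with Cre and 47.8, 43.8 and 50.6 CPM in the controls (0.084, -0.20 to 0.37), the tightest interval of the ring. Cct6a measured 43.2, 59.8 and 49.5 CPM with Cre and 55.0, 52.4 and 47.6 CPM in the controls (-0.033, -0.37 to 0.30). Cct3 measured 13.4, 19.0 and 11.6 CPM with Cre and 18.9, 14.8 and 11.1 CPM in the controls (-0.024, -0.56 to 0.51). Cct3 had 1 high library in each group and the widest interval of the ring, at the lowest level. In parentheses are the log2 fold change and its 95% interval, and the adjusted p of the 8 subunits lay between 0.899 and 0.991 in limma.

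Each ring of the complex holds every subunit once, while the transcripts were not equal in level. Per kilobase of transcript (GENCODE M21) the mean level over the 6 libraries was 26.3 ± 1.79 CPM per kb (SD over 6 libraries) for Cct5, 24.9 ± 2.37 for Cct4, 21.2 ± 2.27 for Cct7 and 20.9 ± 2.38 for Cct6a. It was 15.6 ± 1.501 for Cct2, 14.5 ± 2.04 for Tcp1, 11.5 ± 1.84 for Cct8 and 7.48 ± 1.76 for Cct3. Neighbours in this order overlapped in their ranges, apart from Cct6a, whose lowest library (17.6) was above the highest of Cct2 (17.5). The share of a subunit in the summed CPM per kb ranged over the 6 libraries from 17.1% to 21.7% for Cct5, 16.8% to 18.3% for Cct4, 9.66% to 12.6% for Cct2, 8.86% to 12.1% for Tcp1 and 4.09% to 6.46% for Cct3. The length of Cct6a is that of a processed transcript, since this annotation gives that gene no coding sequence, and the isoforms used in these cells were not measured. Cct8l1, a single-exon relative of Cct8, had 5, 9 and 2 reads in the Pax7-CreERT libraries and 1 in each control. It measured 0.526, 0.674 and 0.407 CPM with Cre and 0.167, 0.135 and 0.247 CPM in the controls. With 2 reads in the lowest Cre library and 1 in each control, it was too low to be tested or for its groups to be compared.

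**Figure D4:**
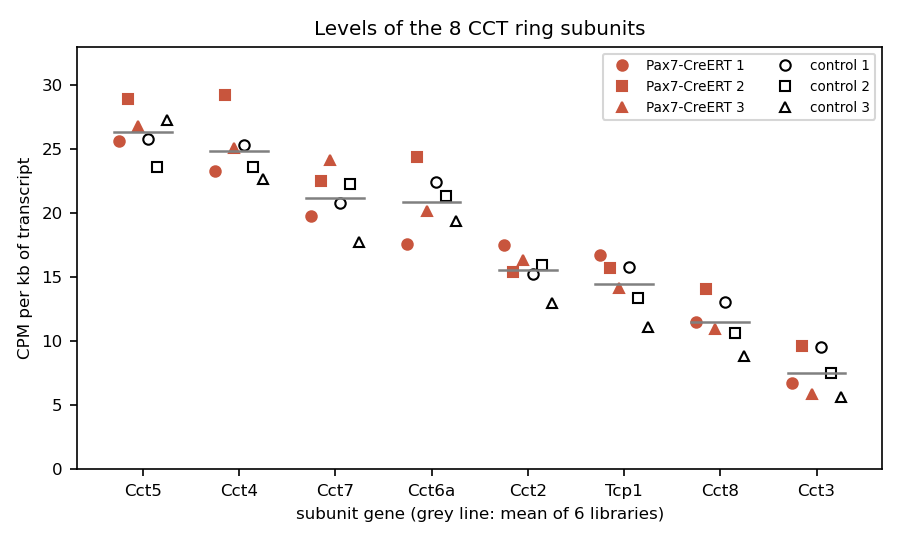
CPM per kb of transcript of the 8 CCT ring subunit genes in each library (filled, Pax7-CreERT; open, control; circle, square and triangle for replicates 1, 2 and 3), with the mean of the 6 libraries as a grey line. The levels run from 26.3 CPM per kb for Cct5 to 7.48 for Cct3, and the filled and open symbols are mixed within every gene.

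The partners and clients of CCT come next. Of 8 genes of prefoldin, which hands actin and tubulin to CCT, and of the phosducin-like cofactors, 5 were higher (4 with TMM scaling) and 3 lower (median 0.16, 0 with an unadjusted limma p under 0.05). The groups did not overlap for 2 of these 8, both higher with Cre, against 0 of the 8 ring subunits and 8.69% of all tested genes in that direction. With so few genes these counts are not read as a difference between the lists. Pdcl3 measured 17.3, 20.3 and 16.7 CPM with Cre and 16.5, 15.4 and 10.6 CPM in the controls. Pfdn1 measured 9.88, 9.88 and 10.6 CPM with Cre and 9.03, 7.14 and 8.88 CPM in the controls. Of 11 actin and tubulin genes 4 were higher (3 with TMM scaling) and 7 lower (median -0.068). The 1 of them with an unadjusted limma p under 0.05 was Tuba4a, at 39.6, 30.6 and 44.7 CPM with Cre and 48.0, 44.1 and 86.1 CPM in the controls (adjusted p = 0.891), where control replicate 3 was far above the rest. Of the mitochondrial chaperonin genes, Hspd1 measured 51.4, 64.9 and 57.6 CPM with Cre and 50.1, 45.5 and 31.3 CPM in the controls. Every Cre library of Hspd1 lay above every control (log2 fold change 0.47, unadjusted limma p of 0.0314, adjusted p = 0.891), which was so for 8.69% of all tested genes. Control replicate 3 was the lowest library of Hspd1, and without it the log2 fold change was 0.27 (unadjusted limma p of 0.0863). With TMM scaling the unadjusted limma p of Hspd1 was 0.0528. Hspe1 measured 12.5 ± 0.654 against 12.9 ± 2.28 CPM.

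The J proteins of the endoplasmic reticulum are co-chaperones of its own HSP70, BiP, and 4 of them are induced by the unfolded protein response. Of these 4, 3 had lower means with Cre and 1 had a higher one (median log2 fold change -0.036, and -0.13 with TMM scaling, where all 4 were lower), and none had an unadjusted limma p under 0.05 with all libraries. Dnajb9 (ERdj4), which holds the stress sensor IRE1 inactive (chromosome 12, 44205897 to 44210068), measured 115, 95.6 and 136 CPM in Pax7-CreERT replicates 1, 2 and 3 and 145, 147 and 96.5 CPM in control replicates 1, 2 and 3. Low values were found in 1 library of each group (log2 fold change -0.15, 95% interval -0.58 to 0.27, adjusted p = 0.932). Without control replicate 3 the log2 fold change of Dnajb9 was -0.35, with an unadjusted limma p of 0.0381 and an adjusted p of 0.742. Dnajc3 (p58IPK), whose promoter holds the ER stress element shown above, measured 185, 193 and 166 CPM with Cre and 218, 183 and 164 CPM in the controls (log2 fold change -0.046, 95% interval -0.36 to 0.27, adjusted p = 0.973). Dnajb11 (ERdj3), a secreted and luminal class B protein, measured 41.2, 50.8 and 48.0 CPM with Cre and 49.0, 43.2 and 45.9 CPM in the controls (0.017, 95% interval -0.29 to 0.32). Dnajc10 (ERdj5), which reduces disulfides of misfolded proteins, measured 44.5, 52.8 and 51.1 CPM with Cre and 51.0, 50.9 and 48.8 CPM in the controls (-0.026, -0.31 to 0.26). In both genes Pax7-CreERT replicate 1 was the lowest library and replicate 2 the highest.

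The other 6 J proteins of the reticulum had log2 fold changes above 0, 5 of 6 with TMM and 4 of 6 with quantile scaling (median 0.11). Besides Dnajc1, these were the membrane proteins Dnajb12 and Dnajb14, which help to remove misfolded membrane proteins, and Dnajc16, Dnajc18 and Dnajc25. Dnajb12 measured 36.8, 32.0 and 29.9 CPM with Cre and 23.2, 38.3 and 32.3 CPM in the controls, with the lowest and the highest value among the controls (0.095, -0.33 to 0.52). Dnajb14 was fainter, at 7.36, 6.14 and 7.53 CPM with Cre and 6.69, 7.68 and 5.43 CPM in the controls (0.083, -0.38 to 0.55). Dnajc18 measured 73.3, 75.1 and 58.0 CPM with Cre and 62.2, 60.9 and 65.6 CPM in the controls (0.12, -0.19 to 0.43), with 2 Cre libraries above and the third below the controls. Dnajc16 measured 15.8, 13.7 and 19.1 CPM with Cre and 14.0, 15.6 and 13.3 CPM in the controls (0.16, -0.24 to 0.55) and had its highest value in Pax7-CreERT replicate 3. Dnajc25 measured 7.25, 6.07 and 5.70 CPM with Cre and 4.68, 5.93 and 6.41 CPM in the controls (0.14, -0.33 to 0.61).

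Among mitochondrial J proteins, Dnajc30, an intronless gene whose product acts on complex I and ATP synthase (chromosome 5, 135064206 to 135065365), was the member with the smallest unadjusted limma p (0.0402). It measured 4.92, 6.27 and 4.60 CPM in Pax7-CreERT replicates 1, 2 and 3 and 6.44, 10.3 and 7.81 CPM in control replicates 1, 2 and 3. Every Cre library lay below every control, by a narrow gap between Pax7-CreERT replicate 2 and control replicate 1. The means were 5.26 ± 0.885 against 8.20 ± 1.98 CPM (log2 fold change -0.54, 95% interval -1.05 to -0.03, adjusted p = 0.891), and its adjusted p in limma lay between 0.586 and 1 over 13 alternative settings. For Dnajc30 the exact 2-sided permutation p was 0.1, as for any gene without overlap, so it adds nothing to the lack of overlap. The exons of Dnajc30 overlap those of Bud23 on the opposite strand over 26.2% of their length, and the values of Dnajc30 held fractions of reads in 6 of 6 libraries. Bud23 measured 4.86, 3.99 and 2.93 CPM with Cre and 4.76, 2.59 and 1.82 CPM in the controls. Whether and how reads were divided between these genes, and the part of this in the value of Dnajc30, was not tested.

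Dnajc15, an inhibitor of complex I that lies in the inner membrane, measured 2.21, 3.07 and 1.02 CPM with Cre and 1.17, 1.48 and 1.23 CPM in the controls, with 2 Cre libraries above and 1 below all controls (log2 fold change 0.38, 95% interval -0.32 to 1.07, adjusted p = 0.899). Dnaja3 (Tid1), the class A partner of mitochondrial HSP70, measured 14.2, 16.2 and 10.8 CPM with Cre and 14.9, 11.5 and 9.62 CPM in the controls (0.18, -0.30 to 0.67). Dnajc19, a part of the import motor, measured 28.9, 26.3 and 31.5 CPM with Cre and 30.1, 27.3 and 23.2 CPM in the controls (0.11, -0.24 to 0.45). Dnajc11, a protein of the cristae junctions, measured 20.4, 23.8 and 24.4 CPM with Cre and 19.4, 24.8 and 21.0 CPM in the controls (0.075, -0.28 to 0.43). In these 3 genes the groups overlapped, and Dnaja3 and Dnajc19 were lowest in control replicate 3.

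The J proteins of vesicles included the other member without overlap between the groups. Dnajc6 (auxilin), which strips clathrin from vesicles and is best known from neurons (chromosome 4, 101496648 to 101642799), measured 1.68, 1.498 and 0.611 CPM in Pax7-CreERT replicates 1, 2 and 3 and 3.51, 2.02 and 1.73 CPM in control replicates 1, 2 and 3. The highest Cre library and the lowest control differed by less than 1 read is worth in either. The log2 fold change of Dnajc6 was -0.59 (95% interval -1.30 to 0.11, adjusted p = 0.896, exact 2-sided permutation p = 0.1, as for any gene without overlap). Dnajc5 (cysteine string protein), the J protein of secretory vesicles, was abundant and even, at 117, 140.1 and 124 CPM with Cre and 115, 122 and 140.1 CPM in the controls (0.017, -0.28 to 0.31). Dnajc13 (RME-8), which sorts cargo on endosomes, measured 40.4, 32.4 and 33.6 CPM with Cre and 33.8, 35.4 and 27.9 CPM in the controls (0.13, -0.22 to 0.47). Dnajc27, a small GTPase with a J domain, measured 35.5, 35.1 and 26.5 CPM with Cre and 28.1, 29.1 and 26.9 CPM in the controls, with 2 Cre libraries above all controls and the third below them (0.19, -0.16 to 0.54).

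The J proteins of the nucleus, the ribosome and RNA had 2 values above 0 (1 with TMM scaling) and 3 below (median -0.052). Dnajc8, a splicing-associated protein and one of the most abundant members, measured 118, 139 and 124 CPM with Cre and 132, 137 and 146 CPM in the controls (log2 fold change -0.13, 95% interval -0.41 to 0.15, adjusted p = 0.911). Dnajc21, which works in maturation of the large ribosomal subunit, measured 22.1, 21.0 and 20.8 CPM with Cre and 21.9, 24.0 and 23.2 CPM in the controls (-0.11, -0.42 to 0.21), and Pax7-CreERT replicate 1 lay just above control replicate 1. Dnajc9, a histone chaperone, measured 20.9, 25.2 and 25.2 CPM with Cre and 26.7, 22.8 and 24.4 CPM in the controls (-0.052, -0.39 to 0.29). Dnajc2, which binds the ribosome at the tunnel exit, measured 4.21, 3.37 and 6.11 CPM with Cre and 4.51, 2.83 and 4.44 CPM in the controls (0.16, -0.43 to 0.76) and Dnajc17 2.31, 1.72 and 1.63 CPM with Cre and 1.67, 2.83 and 1.23 CPM in the controls (0.018, -0.62 to 0.66). Dnajc12, a partner of the aromatic amino acid hydroxylases outside these lists, measured 1.47, 1.65 and 0.814 CPM in Pax7-CreERT replicates 1, 2 and 3 and 2.84, 2.69 and 0.740 CPM in control replicates 1, 2 and 3. It was high in control replicates 1 and 2 and lowest in control replicate 3 (log2 fold change -0.35, 95% interval -1.15 to 0.44, adjusted p = 0.916). Without control replicate 3 the log2 fold change of Dnajc12 was -0.72, with an adjusted p of 0.730.

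The remaining 7 tested members were Dnaja2, Dnajb6, Dnajc4, Dnajc7, Dnajc14, Dnajc24 and Dnajc28, with means from 2.27 to 103.5 CPM, log2 fold changes from -0.02 to 0.22 and no adjusted p below 0.952 in limma. Of these, Dnajb6, a suppressor of protein aggregates in muscle whose promoter holds the 3-unit heat shock element, measured 87.6, 85.9 and 94.2 CPM with Cre and 96.1, 80.6 and 96.2 CPM in the controls (-0.024, -0.31 to 0.26) and was highest in control replicate 3, where Dnajb4 and Bag3 were lowest. Dnaja2 measured 89.0, 103 and 115 CPM with Cre and 108, 93.4 and 89.6 CPM in the controls (0.075, -0.24 to 0.39). Dnajc14 measured 101, 111 and 99.5 CPM with Cre and 107, 107 and 96.5 CPM in the controls (0.0022, -0.27 to 0.27), and control replicate 3 was the lowest. Besides Cct8l1, the members left untested were Dnajb3 and Dnajb7, known from testis, and Dnajb13, a protein of cilia and sperm tails. They had 15 reads or fewer in every library, with Dnajb13 at 1.58, 0.599 and 1.42 CPM with Cre and 0.836, 0.943 and 0.247 CPM in the controls. Dnajb3 had 0 reads in control replicate 1, which allows up to 0.501 CPM at that depth, and 6 reads, or 1.48 CPM, in control replicate 3.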

How the data were processed

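RNA of mononuclear cells from skeletal muscle was extracted with Trizol and made into strand-specific libraries with a SureSelect kit, per the labels' protocols (6 libraries, 3 per genotype). The deposited values are CPM that the authors computed: each library sums to 1000000 plus 0.0001 added to every gene, and this constant was taken off. Partek, DESeq2 and mm10 are named in the submitters' processing notes, with no role; the aligner, the annotation and the rule for counting reads are not given in the sources used here. Depth was read from the value of 1 read. Of the values up to 20 reads, 92.9% to 93.9% were whole within 0.05 read, below the 95% required, so no count model was used.

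The members and lists were chosen with earlier results of these data known. Genes reaching 1 CPM in 3 or more libraries were compared with limma 3.58.1 (R 4.3.3) on log2(CPM + 1) with a mean-variance trend, and p-values were adjusted over all 14763 genes by the Benjamini-Hochberg method. The constant of 1 shrinks fold changes of genes near 1 CPM. The test was checked on simulated data. Means and SDs are of 3 libraries. Ends of genes are the table's minus 1, since 40 of 55 members then equal RefSeq. Named in the text are all BAG and CCT genes, DNAJ genes of the role lists, and the 5 DNAJ genes of smallest p in each direction; Dnaja2, Dnajb6, Dnajc14 and the 4 untested members were added after their values were seen. Exon overlaps are with GENCODE M21, where 12 members share exons with a gene of the table on the opposite strand and 0 on the same strand. Protein sequences were not used here. Alternatives were TMM (unweighted) and quantile scaling, a pseudocount of 0.1, no filter, array weights, no trend, and leaving libraries out. Counting errors cover sampling of reads only.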

Additional observations from a re-analysis of the deposited data

How the results depend on the processing

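Over 13 alternative settings 0 members passed the adjusted threshold in limma (lowest adjusted p = 0.586). Of 44 named members 24 kept the sign of their log2 fold change in every setting. Among all genes 1 passed, 2 with no filter on low values, 2 when control replicate 3 and Pax7-CreERT replicate 1 were both left out, and 0 to 1 when single libraries were left out. Members at an unadjusted p under 0.05 as higher numbered 1, and 0 with TMM scaling, 0 with no trend, 0 without both of those libraries and 0 to 1 without single libraries; as lower they numbered 1, and 2 with quantile scaling, 2 without both libraries and 0 to 2 without single ones. These were not the same genes throughout: Dnajc30 was among them in 8 of the 13 settings and Dnajb4 in 5, Dnajc12 and Dnajc6 in 2 each, and Bag6, Dnajb2 and Dnajb9 in 1 each. Members whose groups do not overlap numbered 3, and 5 with TMM scaling, 12 without both libraries and 5 to 11 without single ones, where fewer libraries make overlap less likely by construction. The share of all tested genes without overlap was not computed in the alternative settings, so these counts are not read as a result about the members. Apart from TMM scaling, the same holds for the counts at an unadjusted limma p under 0.05. The DNAJ median log2 fold change of 0.075 was -0.018 with TMM and -0.014 with quantile scaling. The log2 fold change of Bag1 changed sign to 0.0092 without control replicate 3 and 0.073 without both libraries, and ran from -0.38 to 0.0092 over single omissions; that of Dnaja1 changed to -0.042 and -0.015, and ran from -0.042 to 0.42. No paired analysis was possible because replicates were numbered in record order, so no number links a library to one of the other group. Depth limits the members below 10 CPM, of which there were 16.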
